A study of Homo sapiens with 10 samples.

Results

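Tubulin mRNAs were followed through 3 pellets of extracellular vesicles (EVs) and the cells that shed them. The 10 transcripts are the alpha-tubulins TUBA1A, TUBA1B, TUBA1C and TUBA4A, the beta-tubulins TUBB, TUBB2A, TUBB3, TUBB4B and TUBB6, and the gamma-tubulin TUBG1. They were found by their gene symbols in GENCODE release 29 and are 10 of the 94946 entries of the count table. Each of the 10 has 1 entry in the table, and each passed the filter on low counts in every fit. The genes were chosen by their measured levels in the pellets, after tubulins had been seen to differ in direction from other cytoskeletal mRNAs in these libraries. The contrast in which this was seen is not stated and was taken to be EV 100K against EV 2.8K. Differences in it are therefore given as a description, with no test. In it TUBA1B and TUBA1C lay opposite to most actin genes, while the other 8 tubulins lay on the same side. The other comparisons use the same libraries, so their p-values for the members are not independent of the choice. No count of passing members is read against the shares of all genes.

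Counts came from total RNA sequencing of PC3, an established line of human prostate cancer cells that was started from a metastasis in bone. PC3 cells were grown in DMEM with fetal bovine serum, glutamine and antibiotics, and no group carries a further treatment or genetic change in the labels. EVs were pelleted at 3 speeds, for which the labels give no unit: EV 2.8K is the slowest spin, EV 10K the middle one and EV 100K the fastest. There are 3 libraries for each pellet, with set numbers 1 to 3, and 1 library of whole PC3 cells. The comparisons ask whether the RNA of the pellets differs between spins and from that of the cells. Since no source states that different set numbers mean different cultures, the p-values cover the spread among these libraries, which may be technical.

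Microtubules are hollow filaments assembled from dimers of 1 alpha-tubulin and 1 beta-tubulin protein. Gamma-tubulin sits in a ring complex that starts new filaments at centrosomes and other sites. Alpha- and beta-tubulin are each made from several genes, whose proteins, called isotypes, differ most at their acidic C-terminal tails. Animal cells adjust the amount of tubulin mRNA to the pool of unassembled tubulin: when this pool grows, the factor TTC5 binds the start of the nascent tubulin protein on the ribosome, and the adaptor SCAPER brings in the CCR4-NOT complex, which degrades the mRNA being translated. Microtubules are also the target of taxanes, drugs used against advanced prostate cancer.

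The first 30 coding bases of the transcripts are shown because this part of the mRNA encodes the start of alpha- and beta-tubulin that autoregulation reads. TUBG1 is printed beside them for comparison only. Capitals mark the first 12 bases. TUBA1A, TUBA1B and TUBA1C were identical over all 30 bases, so 1 of them is printed. All sequences are the sense strand of GENCODE 29 transcripts on GRCh38, 5′ to 3′.
TUBA1B start: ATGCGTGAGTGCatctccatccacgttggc
TUBA4A start: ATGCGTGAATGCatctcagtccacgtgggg
TUBB start: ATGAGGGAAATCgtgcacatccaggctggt
TUBB2A start: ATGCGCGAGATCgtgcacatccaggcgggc
TUBB4B start: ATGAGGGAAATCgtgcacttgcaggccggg
TUBB6 start: ATGAGGGAGATCgtgcacatccaggcgggc
TUBG1 start: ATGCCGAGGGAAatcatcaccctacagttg
The first 12 bases fell into 2 forms among the 4 alpha-tubulins and 3 forms among the 5 beta-tubulins. TUBB and TUBB4B shared 1 form, and TUBB3 and TUBB6 another. Within each family these forms differ only in synonymous codons and encode the same protein start, while the TUBG1 start differs from both.

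The last 60 coding bases are shown for the 2 most abundant beta-tubulins, because they encode the tail that sets isotypes apart. Capitals mark bases of TUBB4B that were not paired with an identical base in an alignment of the whole coding sequence to TUBB.
TUBB end: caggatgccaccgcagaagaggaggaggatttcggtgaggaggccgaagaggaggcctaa
TUBB4B end: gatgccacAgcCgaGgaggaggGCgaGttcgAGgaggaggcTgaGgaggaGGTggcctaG
Over the whole coding sequence, TUBA1B was 97.2% identical to TUBA1A, 96.8% to TUBA1C and 85.7% to TUBA4A. TUBB was 84.4% identical to TUBB4B. Alpha-tubulins were 53.4 to 55.8% identical to beta-tubulins. Outside the coding sequence the chosen transcripts differed more in size: the 3′ untranslated region had 1376 bases in TUBA1C, 1029 in TUBB, 214 in TUBA1A and 176 in TUBA1B.

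The libraries held between 5424964 counts (EV 100K set 2) and 28735081 counts (cells), and the EV 2.8K libraries were deeper than the EV 100K libraries. Levels are given as CPM, counts relative to a library total of 1000000, scaled by TMM factors. Of the epithelial and PC3 marker genes, KRT8, KRT18, KRT19 and VIM were abundant in every library, while EPCAM and CDH1 were at or below 11.8 CPM. The sum of these 6 genes was 2460 to 3159 CPM in EV 2.8K, 1900 to 2528 CPM in EV 10K, 911 to 1088 CPM in EV 100K and 1762 CPM in cells, so this list moved with the pellets too. Among androgen-regulated prostate genes, KLK2, KLK3 and FOLH1 were at 0 throughout. Among 6 neuronal genes RBFOX3, SNAP25 and GAP43 were at 0, and NEFL, at 257 to 1072 CPM, made up most of a sum of 519 to 1013 CPM in EV 2.8K, 600.0 to 1083 CPM in EV 10K, 349 to 447 CPM in EV 100K and 260.1 CPM in cells. The 6 blood and leukocyte genes summed to at most 1.68 CPM in any library, and 6 fibroblast genes to 5.93 to 43.5 CPM. The part of these other genes in the tubulin results was not tested.

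TUBA1B and TUBA1C, the ubiquitous alpha-tubulins of dividing cells, were the 2 tubulins with more mRNA in the pellets of the faster spins. TUBA1B (chromosome 12, 49127782 to 49131397, minus strand) had 1224, 1136 and 1029 CPM in EV 2.8K, 1997, 2085 and 1734 CPM in EV 10K, 2206, 2061 and 1650 CPM in EV 100K and 1639 CPM in cells. All libraries of EV 10K and EV 100K were above all 3 of EV 2.8K, and the 2 faster pellets overlapped. TUBA1C (chromosome 12, 49188736 to 49274603, plus strand) had 557.8, 527.2 and 530.7 CPM in EV 2.8K, 852.1, 857.4 and 870.2 CPM in EV 10K, 1243, 1053 and 913 CPM in EV 100K and 937 CPM in cells. For TUBA1C none of the 3 pellets overlapped another. EV 100K was above EV 2.8K by 0.78 (SE 0.18) on the log2 scale for TUBA1B and by 0.97 (SE 0.18) for TUBA1C.

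TUBA1A, an alpha-tubulin prominent in neurons, showed the other order although its coding sequence is the closest to that of TUBA1B. TUBA1A (chromosome 12, 49184796 to 49189324, minus strand) had 75.5, 178 and 174 CPM in EV 2.8K, 69.7, 108 and 189 CPM in EV 10K, 35.1, 36.7 and 42.7 CPM in EV 100K and 72.4 CPM in cells. The EV 100K libraries lay close together and below all others, while the slower pellets were spread and overlapped. TUBA4A (chromosome 2, 219249711 to 219278170, minus strand), an isotype known from blood platelets, muscle and motor neurons, was rare. It had 15.99, 4.19 and 6.42 CPM in EV 2.8K, 17.1, 10.3 and 3.80 CPM in EV 10K, 1.41, 2.02 and 2.89 CPM in EV 100K and 25.5 CPM in cells. The EV 100K values rest on 10, 11 and 18 counts, and they lay below all libraries of both slower pellets. The difference of EV 100K from EV 2.8K was -1.92 (SE 0.36) on the log2 scale for TUBA1A and -2.09 (SE 0.91) for TUBA4A.

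**Figure D1:**
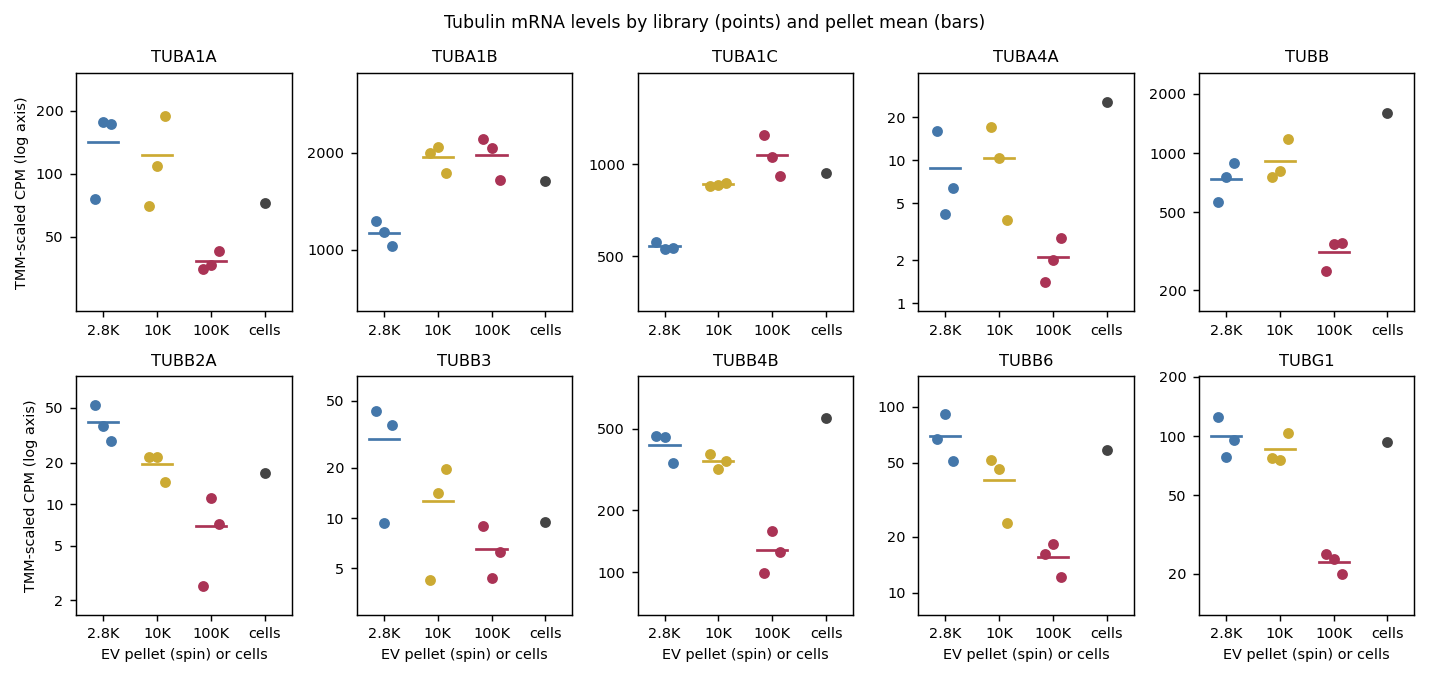
TMM-scaled CPM of each tubulin on a log axis (each panel with its own range) in EV 2.8K, EV 10K, EV 100K and cells; points are libraries and bars are means of 3 libraries. TUBA1B and TUBA1C are the 2 genes whose EV 100K libraries all lie above EV 2.8K, and the other 8 lie below it.

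All 5 beta-tubulins had less mRNA in EV 100K than in EV 2.8K in every library. TUBB (chromosome 6, 30720201 to 30725426, plus strand), the main beta-tubulin of dividing cells, had 563 to 892 CPM in EV 2.8K and 759 to 1180 CPM in EV 10K. It was at 250.5, 347 and 348 CPM in EV 100K, against 1593 CPM in cells, and both slower pellets overlapped. TUBB4B (chromosome 9, 137241213 to 137243707, plus strand), a widely expressed isotype also needed for the microtubules of cilia, had 459.7, 455 and 342 CPM in EV 2.8K, 376, 318 and 349.8 CPM in EV 10K, 99.5, 159 and 125 CPM in EV 100K and 562 CPM in cells. Its EV 100K libraries were the 3 lowest of all 10.

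TUBB6 (chromosome 18, 12307669 to 12344320, plus strand), a broadly expressed minor isotype, had 67.2, 90.8 and 51.0 CPM in EV 2.8K, 51.5, 46.3 and 23.6 CPM in EV 10K, 16.2, 18.2 and 12.2 CPM in EV 100K and 58.5 CPM in cells. TUBB2A (chromosome 6, 3153669 to 3157526, minus strand), an isotype abundant in brain, had 53.0, 37.1 and 28.7 CPM in EV 2.8K, 21.9, 21.97 and 14.4 CPM in EV 10K, 2.53, 11.01 and 7.22 CPM in EV 100K and 16.8 CPM in cells. For TUBB2A none of the 3 pellets overlapped another. TUBB3 (chromosome 16, 89921392 to 89938761, plus strand), a neuronal isotype also made by some tumours, had 43.8, 9.39 and 36.0 CPM in EV 2.8K, 4.25, 14.1 and 19.7 CPM in EV 10K, 8.99, 4.41 and 6.25 CPM in EV 100K and 9.45 CPM in cells. Its EV 2.8K set 2 was less than 0.5 CPM above the highest EV 100K library, and its EV 10K libraries overlapped both other pellets. The log2 differences of EV 100K from EV 2.8K were -1.25 (SE 0.23) for TUBB, -1.73 (SE 0.21) for TUBB4B, -2.19 (SE 0.37) for TUBB6, -2.54 (SE 0.52) for TUBB2A and -2.20 (SE 0.65) for TUBB3.

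TUBG1 (chromosome 17, 42609676 to 42615234, plus strand), the main gamma-tubulin, had 125, 77.9 and 95.5 CPM in EV 2.8K, 77.0, 76.0 and 104 CPM in EV 10K, 25.1, 23.7 and 19.9 CPM in EV 100K and 93.4 CPM in cells. The 3 EV 100K libraries were tight and far below the rest, and EV 10K, EV 2.8K and the cells lay together. The log2 difference of EV 100K from EV 2.8K was -2.14 (SE 0.28).

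As a description of the contrast taken to have chosen the genes, EV 100K lay above EV 2.8K in all libraries for 2 of the 10. It lay below EV 2.8K for 8. No test is given for the members here. Of all 15525 genes tested, 25.8% passed an adjusted p of 0.05 in edgeR's quasi-likelihood test in this contrast, 12% higher and 13.8% lower, and nothing is read from the members against these shares. The median log2 difference was -2.01 over the 10 and -0.06 over all genes tested. Whether a pellet held fewer vesicles with a given mRNA or fewer copies per vesicle cannot be told apart in such bulk libraries.

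Added over genes, EV 100K held more alpha-tubulin mRNA and less beta-tubulin mRNA than EV 2.8K, while its alpha sum overlapped that of EV 10K and lay on both sides of the cells. The 4 alpha-tubulins summed to 1819 ± 70.5 CPM in EV 2.8K, 2931 ± 132 CPM in EV 10K and 3082 ± 442 CPM in EV 100K (SD, n = 3 each), against 2674 CPM in cells. The 5 beta-tubulins summed to 1295 ± 93.6, 1336 ± 218 and 472 ± 83.9 CPM in the same pellets, against 2239 CPM in cells. The ratio of the alpha sum to the beta sum was 1.58, 1.37 and 1.29 in EV 2.8K, 2.42, 2.53 and 1.76 in EV 10K, 9.23, 5.85 and 5.23 in EV 100K and 1.19 in cells. No library of 1 pellet overlapped another pellet in this ratio, and every EV library lay above the cell library. The share of all counts on the 10 tubulins was 0.336 ± 0.048% for EV 2.8K, 0.419 ± 0.026% for EV 10K and 0.336 ± 0.040% for EV 100K, against 0.607% for cells. These sums follow the most abundant members, and no test was made over the chosen genes.

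**Figure D2:**
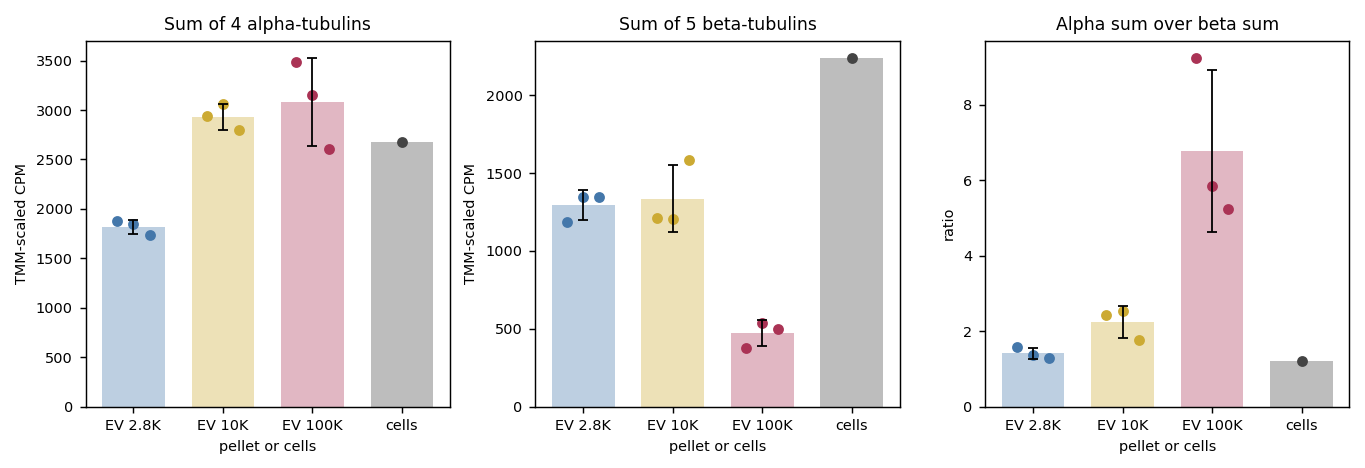
Sum of the 4 alpha-tubulins, sum of the 5 beta-tubulins (both in TMM-scaled CPM) and their ratio in each pellet and in cells; bars are means, error bars SD of 3 libraries, points single libraries, and the cells have 1 library. The beta sum of EV 100K, 472 ± 83.9 CPM, is the lowest, and its ratio of 5.23 to 9.23 the highest.

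Within the alpha-tubulins the shares of TUBA1A and TUBA4A were lowest in EV 100K, and TUBA1C had a larger share there than in the slower pellets. The part of TUBA1A in the alpha sum was 7.88 ± 3.34% for EV 2.8K, 4.23 ± 2.27% for EV 10K and 1.27 ± 0.326% for EV 100K (SD, n = 3 each), and 2.71% for cells. TUBA1B remained near its share in every group, at 62.0 ± 3.13, 66.0 ± 3.503 and 64.0 ± 1.22% against 61.3% in cells. TUBA1C was 29.6 ± 0.974, 29.4 ± 1.58 and 34.7 ± 1.17% of the alpha sum, and 35.1% in cells. The rare TUBA4A was 0.483 ± 0.329, 0.352 ± 0.224 and 0.0717 ± 0.0358%, and 0.953% in cells. There were 16.2, 6.39 and 5.92 TUBA1B counts per TUBA1A count in EV 2.8K, 28.6, 19.2 and 9.17 for EV 10K, 62.8, 56.1 and 38.7 for EV 100K and 22.6 for cells.

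Within the beta-tubulins the mix of isotypes moved less than the total. TUBB made up 56.6 ± 9.33% of the beta sum for EV 2.8K, 67.9 ± 5.94% for EV 10K and 66.8 ± 2.79% for EV 100K, and 71.1% for cells. TUBB4B made up 32.6 ± 6.78, 26.5 ± 4.48 and 26.9 ± 2.28%, and 25.1% in cells. The ranges of the 3 pellets overlapped for each of these 2 isotypes. TUBB6, TUBB2A and TUBB3 shared the rest, each at or below 6.73% in every library.

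Levels of different genes are compared per kilobase of the chosen transcript. TUBA1B was the most abundant tubulin mRNA in every group, at 694 CPM per kb in EV 2.8K, 1191 for EV 10K, 1212 for EV 100K and 1007 for cells, without overlap with the next gene in any pellet. The second place changed hands: TUBB followed in EV 2.8K (276 CPM per kb), EV 10K (343) and cells (597), while in EV 100K it was TUBA1C (356), with TUBB after it (118). TUBA1C came after TUBB4B in EV 2.8K (179.5 CPM per kb) and in cells (312). TUBB and TUBB4B overlapped in EV 2.8K and EV 100K, TUBB and TUBA1C in EV 10K, and TUBA1A and TUBG1 in both slower pellets. TUBB6, TUBB2A, TUBB3 and TUBA4A closed the order in each pellet, with neighbours that overlapped except TUBB3 and TUBA4A in EV 100K. Per kilobase of all annotated exons together, TUBB (474 CPM per kb) stood above TUBA1B (459) in the cells, and TUBA1B kept the first place in each pellet.

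EV 10K against EV 2.8K asks what the middle spin adds, and here TUBA1B and TUBA1C were the 2 tubulins that rose. TUBA1B averaged 1939 ± 182 CPM in EV 10K and 1129 ± 97.9 CPM in EV 2.8K (SD, n = 3 each), a log2 difference of 0.77 (SE 0.18, edgeR adjusted p = 0.0141). TUBA1C averaged 860 ± 9.29 CPM in EV 10K and 539 ± 16.7 CPM in EV 2.8K, a log2 difference of 0.66 (SE 0.18, edgeR adjusted p = 0.0288). Both were higher in 3 of 3 libraries. Their p-values are not independent of the choice of genes, which was made on these same libraries. The 2 genes passing of 10 stand beside 6.38% of all genes tested, 4.15% higher and 2.22% lower. No member passed in the other direction in edgeR or in DESeq2, while TUBB2A and TUBB6 were lower at an unadjusted p under 0.05 in edgeR.

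The 8 other tubulins had log2 differences between -1.24 and 0.30 in EV 10K against EV 2.8K. TUBB3 had -1.24 (SE 0.63, edgeR adjusted p = 0.278), TUBB2A -1.04 (SE 0.49, adjusted p = 0.233) and TUBB6 -0.80 (SE 0.35, adjusted p = 0.201). TUBB had 0.30 (SE 0.22, edgeR adjusted p = 0.519). Without EV 10K set 1 neither TUBA1B (edgeR adjusted p = 0.0526) nor TUBA1C (0.0771) passed. TUBA1C also missed the threshold without EV 2.8K set 2 (0.0613), EV 10K set 2 (0.0548) or 3 (0.0614) or EV 100K set 2 (0.0502), as edgeR adjusted p values, and with scaling by library totals alone (0.0616) or a fit of only the 6 libraries (0.0632).

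**Figure D3:**
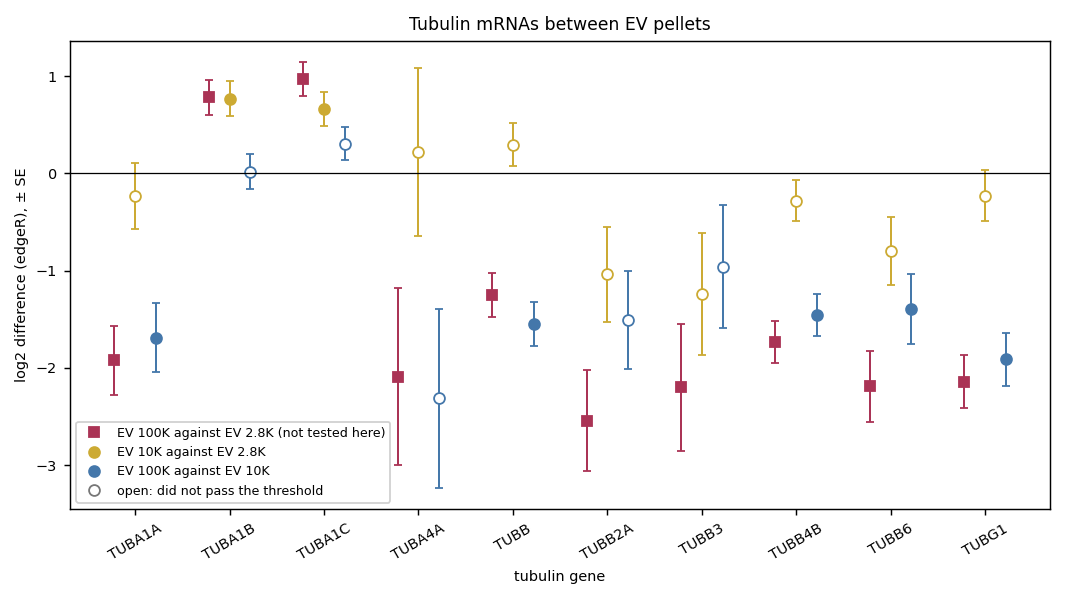
Log2 differences with SE from edgeR for each tubulin in the 3 comparisons between pellets, which share libraries. Squares are EV 100K against EV 2.8K, taken to be the contrast that chose the genes and not tested. Filled circles passed an adjusted p of 0.05 in the other comparisons. The differences of TUBA1B and TUBA1C are positive or near 0, and the beta-tubulins and TUBG1 are lowest in EV 100K, with EV 10K near EV 2.8K for TUBB, TUBB4B and TUBG1.

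EV 100K against EV 10K asks what the fastest spin adds, and 5 of the 10 tubulins fell while none rose. TUBA1A averaged 38.2 ± 3.97 CPM in EV 100K and 122 ± 61.0 CPM in EV 10K (SD, n = 3 each), a log2 difference of -1.69 (SE 0.35, edgeR adjusted p = 0.00423). TUBB averaged 315 ± 55.9 CPM in EV 100K and 915 ± 230.1 CPM in EV 10K (log2 difference -1.55, SE 0.23, edgeR adjusted p = 0.000243). TUBB4B averaged 128 ± 29.8 CPM in EV 100K and 348 ± 28.9 CPM in EV 10K (log2 difference -1.45, SE 0.21, edgeR adjusted p = 0.000222). The gamma-tubulin TUBG1 had the steepest of these falls, averaging 22.9 ± 2.72 CPM in EV 100K and 85.7 ± 16.03 CPM in EV 10K (log2 difference -1.91, SE 0.27, edgeR adjusted p = 0.000188). TUBB6 averaged 15.5 ± 3.05 CPM in EV 100K and 40.5 ± 14.9 CPM in EV 10K (log2 difference -1.39, SE 0.36, edgeR adjusted p = 0.0167). All 5 were lower in 3 of 3 libraries. Since the genes were chosen from levels in these same libraries, the p-values are not independent of that choice.

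Over all genes tested 10.9% passed between these pellets, 3.7% higher and 7.23% lower. TUBA1B, at 0.02 (SE 0.18, edgeR adjusted p = 0.978), and TUBA1C, at 0.31 (SE 0.17, adjusted p = 0.327), did not pass, nor did TUBA4A at -2.31 (SE 0.92, adjusted p = 0.128), TUBB2A at -1.50 (SE 0.50, adjusted p = 0.0653) or TUBB3 at -0.96 (SE 0.64, adjusted p = 0.431). No tubulin was higher in DESeq2 or at an unadjusted p under 0.05 in edgeR. DESeq2 called 7 lower, adding TUBA4A and TUBB2A, and TUBB2A also passed without EV 2.8K set 1 (edgeR adjusted p = 0.0407) or EV 100K set 2 (0.0403). TUBB6 missed the threshold without EV 10K set 1 (edgeR adjusted p = 0.0724) or 2 (0.0705) or EV 100K set 1 (0.0575) or 3 (0.0938).

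Against the cells, TUBB and TUBB4B were the tubulins that passed for the mean of the pellets, both lower. The cell library has no replicate, so the spread in these tests comes from the EV libraries. Levels in the EV libraries were also used to choose the genes, so p-values against cells are not independent of that choice. In EV 100K 5 tubulins were lower than in cells and none was higher: TUBB by a log2 difference of -2.34 (SE 0.28, edgeR adjusted p = 2.85e-15), TUBB4B by -2.14 (SE 0.29, adjusted p = 2.35e-11), TUBG1 by -2.03 (SE 0.38, adjusted p = 5e-06), TUBB6 by -1.92 (SE 0.46, adjusted p = 0.000644) and TUBA4A by -3.59 (SE 1.12, adjusted p = 0.0162). Over all 22370 genes tested 10% passed, 4.59% higher and 5.46% lower. TUBA1B, at 0.27 (SE 0.30, edgeR adjusted p = 0.855), and TUBA1C, at 0.19 (SE 0.30, adjusted p = 0.97), did not pass, and no tubulin was higher in DESeq2 or at an unadjusted p under 0.05. TUBA4A missed the threshold without EV 100K set 1 (edgeR adjusted p = 0.0948) or 2 (0.0664), and TUBA1A passed without EV 2.8K set 1 (-0.92, adjusted p = 0.0256) or with scaling by library totals alone (-1.29, adjusted p = 0.00659).

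In EV 2.8K TUBB was the 1 of the 10 that passed against cells, at 737 ± 165 CPM (SD, n = 3) against 1593 CPM in cells, whose counting interval (95% Wilson) is 1580 to 1606 CPM. Its log2 difference was -1.11 (SE 0.28, edgeR adjusted p = 0.00717), where 2.24% of all genes tested passed, 1.54% higher and 0.697% lower. Without EV 2.8K set 1, TUBA1A, higher by 1.28 (edgeR adjusted p = 0.019), and TUBA1C, lower at -0.82 (adjusted p = 0.035), passed as well. In EV 10K no tubulin passed against cells in edgeR or DESeq2, with 4.43% of all genes passing (2.82% higher and 1.6% lower), while TUBB and TUBB4B were lower at an unadjusted p under 0.05 in edgeR. Their log2 differences were -0.80 (SE 0.29, edgeR adjusted p = 0.102) for TUBB and -0.69 (SE 0.31, adjusted p = 0.281) for TUBB4B. TUBB passed without EV 2.8K set 1 (edgeR adjusted p = 0.012) or EV 10K set 3 (0.0382), and both passed with scaling by library totals alone (0.00224 and 0.0181).

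For the mean of the pellets against cells, TUBB was lower by a log2 difference of -1.42 (SE 0.24, edgeR adjusted p = 4.87e-07) and TUBB4B by -1.08 (SE 0.26, adjusted p = 0.00158). These 2 of 10 stand beside 4.43% of all genes tested, 2.55% higher and 1.88% lower. TUBB was below the cell library in 9 of 9 EV libraries, at 250.5 to 1180 CPM, and so was TUBB4B, at 99.5 to 459.7 CPM. TUBA1B in the EV libraries, at 1029 to 2206 CPM, lay on both sides of the cells' 1639 CPM, with a log2 difference of -0.01 (SE 0.27, edgeR adjusted p = 1) that changed sign with the scaling. TUBA1C at -0.24 (SE 0.27, edgeR adjusted p = 0.914) did not pass either.

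**Figure D4:**
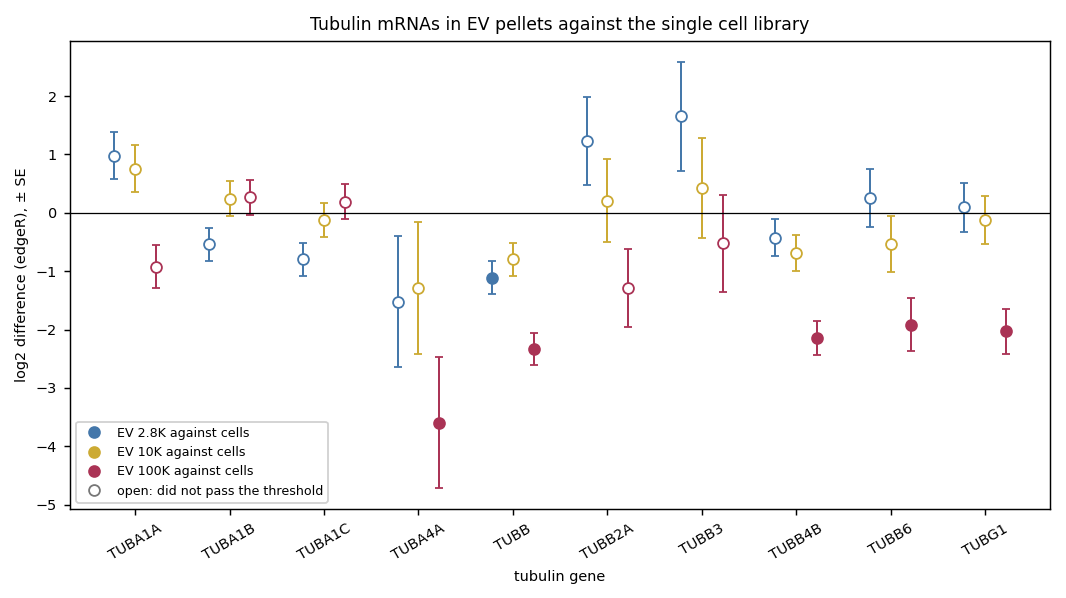
Log2 differences with SE from edgeR for each tubulin in each pellet against the single cell library, which all 3 pellets share; filled points passed an adjusted p of 0.05. TUBB lies below the cells in each pellet (-1.11, -0.80 and -2.34), and TUBA1B and TUBA1C lie near them in EV 100K.

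Reads shared with near-identical or overlapping genes limit how sharply some members can be told apart, since the sources used here do not give how reads that match several places, or overlapping genes, were counted. Of all windows of 50 bases in the chosen transcript, 87.1% in TUBA1B, 51.8% in TUBA1A and 40.1% in TUBA1C occur in another annotated gene. Windows were searched on both strands, so overlap with a gene on the opposite strand counts here like a near-identical copy. The shares were 89.4% in TUBB3, 65.5% in TUBB2A, 32.6% in TUBA4A, 30.8% in TUBB, 30.3% in TUBG1, 14.6% in TUBB4B and 1.0% in TUBB6. Of the 5 genes that fell in EV 100K against EV 10K, TUBB4B and TUBB6 had the fewest shared windows, and TUBA1A, TUBB and TUBG1 had more. TUBA1B shared 68.7% of its windows with the overlapping antisense gene AC011603.2, which has no entry in the count table under its GENCODE identifier. It shared 38.6% with TUBA1A and 37.2% with TUBA1C. TUBA4A shared 27.4% with the overlapping gene STK16. TUBA1A, which shares windows with TUBA1B and TUBA1C, had the opposite order of EV 100K and EV 2.8K. The part of shared reads in these differences was not tested.

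TUBA1A and TUBA1C lie head to head on opposite strands and overlap over 589 bases, of which 490 are exonic in both. The kit keeps the strand, but the strand setting of the counting is not given. The antisense genes annotated across TUBA1B, TUBA1C and TUBB have no entry under their GENCODE identifiers in the count table and were not analysed. Whether entries with other identifiers cover the same places was not tested. TUBB3 shares 89.4% of its windows with the annotated read-through gene AC092143.1, which is listed at 0 in all 10 libraries. TUBB2A shares 60.3% of its windows with TUBB2B, which had 2.99 to 11.6 CPM in EV 2.8K, 3.66 to 15.8 CPM in EV 10K and 1.12 to 3.12 CPM in EV 100K. In EV 10K set 3 TUBB2B (15.8 CPM) was above TUBB2A (14.4 CPM).

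Of 39 annotated tubulin pseudogenes 30 had no count in any library, and the 2 with the most counts, named after their values were seen, went the way of their parent genes. TUBBP1, a processed copy of TUBB, had 27.5, 45.4 and 62.4 CPM in EV 2.8K, 47.5, 44.6 and 60.1 CPM in EV 10K, 13.1, 13.8 and 17.8 CPM in EV 100K and 100.8 CPM in cells, or 3.97 to 6.99% of the TUBB counts. TUBAP2, an alpha-tubulin pseudogene, had 8.80, 4.55 and 13.2 CPM in EV 2.8K, 19.1, 23.7 and 11.9 CPM in EV 10K, 21.4, 17.99 and 20.9 CPM in EV 100K and 15.9 CPM in cells. EV 100K did not overlap EV 2.8K for either. Whether these counts are reads of the parent genes was not tested.

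Of 13 other tubulin genes, TUBA3C, TUBA3D, TUBA3E and TUBB8 had no count in any library, and 6 passed the filter in the pellets. TUBB4A, a brain-enriched beta-tubulin, averaged 87.2 ± 32.0 CPM in EV 2.8K, 39.7 ± 10.8 CPM in EV 10K and 15.7 ± 5.86 CPM in EV 100K (SD, n = 3 each), with a log2 difference of -1.35 (SE 0.37, edgeR adjusted p = 0.0228) between EV 100K and EV 10K. TUBG2, the second gamma-tubulin, averaged 4.48 ± 1.67 CPM in EV 100K and 17.8 ± 4.10 CPM in EV 10K (log2 difference -2.00, SE 0.56, edgeR adjusted p = 0.026). TUBG2 and TUBG1 thus went the same way, though 29.1% of the TUBG1 windows occur in TUBG2. TUBD1, the delta-tubulin of centrioles, stood opposite in EV 100K against EV 2.8K, by a log2 difference of 3.31 (SE 0.89). It had 24.0, 23.9 and 20.1 CPM in EV 100K and 0, 2.27 and 4.45 CPM in EV 2.8K, and averaged 17.0 ± 1.44 CPM in EV 10K. TUBD1 did not pass in EV 100K against EV 10K. It did not pass in EV 10K against EV 2.8K either (log2 difference 2.91, SE 0.88, edgeR adjusted p = 0.058).

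The proteins that fold tubulin had mRNAs on both sides. Of 8 subunits of the chaperonin TRiC, which folds actin and tubulin, 1 rose and 3 fell in EV 100K against EV 10K, where 3.7% of all genes tested rose and 7.23% fell. Their median log2 difference was -0.67, against 0.01 for all genes tested. CCT5 averaged 319 ± 17.7 CPM in EV 100K and 794 ± 121 CPM in EV 10K (log2 difference -1.32, SE 0.18, edgeR adjusted p = 0.000107). CCT6A, chosen after its values were seen in this comparison, averaged 782 ± 99.0 CPM in EV 100K and 509 ± 35.7 CPM in EV 10K (log2 difference 0.61, SE 0.19, edgeR adjusted p = 0.0434), and was higher in EV 10K than in EV 2.8K as well (0.75, SE 0.19, adjusted p = 0.0225).

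Among 12 tested tubulin folding cofactors and prefoldin subunits, 1 rose and 3 fell in EV 100K against EV 10K, beside the same 3.7% and 7.23% of all genes, with a median of -0.97. PFDN2, a prefoldin subunit that hands unfolded chains to TRiC, averaged 81.7 ± 19.4 CPM in EV 100K and 251 ± 30.7 CPM in EV 10K (log2 difference -1.62, SE 0.25, edgeR adjusted p = 0.000296). TBCD, a cofactor that binds beta-tubulin, averaged 164 ± 15.3 CPM in EV 100K and 86.5 ± 15.2 CPM in EV 10K (log2 difference 0.92, SE 0.23, edgeR adjusted p = 0.0123). TBCEL, a cofactor that takes the dimer apart, rose in EV 10K against EV 2.8K (23.7 ± 7.03 against 6.28 ± 1.95 CPM, log2 difference 1.90, SE 0.44, edgeR adjusted p = 0.012).

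Of 18 enzymes that modify tubulin, 3 rose in EV 10K against EV 2.8K and 1 in EV 100K against EV 10K, where 4.15% and 3.7% of all genes tested rose. The gene that rose in EV 100K against EV 10K was TTL. It is the ligase that adds tyrosine back to the alpha-tubulin tail, and averaged 674 ± 66.3 CPM in EV 100K and 348 ± 32.8 CPM in EV 10K (SD, n = 3 each; log2 difference 0.95, SE 0.19, edgeR adjusted p = 0.00317). TTL also rose in EV 10K against EV 2.8K, where it averaged 122 ± 22.4 CPM (log2 difference 1.498, SE 0.195, edgeR adjusted p = 8.95e-05). VASH1, a carboxypeptidase that removes the same tyrosine, averaged 271 ± 79.0 CPM in EV 10K and 59.0 ± 16.3 CPM in EV 2.8K (log2 difference 2.188, SE 0.254, edgeR adjusted p = 3.1e-05), with 399 ± 44.4 CPM in EV 100K and 26.5 CPM in cells. TTLL11, which adds glutamate chains to tubulin, rose in EV 10K against EV 2.8K too (log2 difference 1.20, SE 0.33, edgeR adjusted p = 0.0384). None of the 18 fell in EV 10K against EV 2.8K in edgeR, at an unadjusted p under 0.05 or in DESeq2.

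Of 11 tested factors of tubulin mRNA autoregulation, 2 rose and 1 fell in EV 10K against EV 2.8K, where 4.15% of all genes tested rose and 2.22% fell. In EV 100K against EV 10K 1 fell, a share near the 7.23% of all genes tested that fell. None rose there, where 3.7% of all genes rose, with 1 higher in DESeq2 and 1 at an unadjusted p under 0.05 in edgeR. The median log2 differences were 0.69 and -0.06. In EV 10K against EV 2.8K, CNOT6, a deadenylase of the CCR4-NOT complex, rose (71.9 ± 6.17 against 28.9 ± 14.2 CPM, log2 difference 1.30, SE 0.32, edgeR adjusted p = 0.0192), as did the scaffold subunit CNOT2 (65.4 ± 7.22 against 31.5 ± 10.97 CPM, log2 difference 1.04, SE 0.30, adjusted p = 0.0493). CNOT3, another subunit, fell (113 ± 27.3 CPM in EV 10K against 239 ± 94.95 CPM in EV 2.8K, log2 difference -1.10, SE 0.28, edgeR adjusted p = 0.022). CNOT3 fell again in EV 100K against EV 10K (log2 difference -1.15, SE 0.28, edgeR adjusted p = 0.0108). TTC5 and SCAPER did not pass in either comparison.

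Of 19 tested genes of the gamma-tubulin ring complex and its anchors, 1 fell and none rose in EV 100K against EV 10K, also in DESeq2, a share near the 7.23% of all genes tested that fell. There were 2 higher at an unadjusted p under 0.05 in edgeR, and the median was 0.23. The gene that fell was TUBGCP2, a core subunit of the ring, which averaged 28.8 ± 8.74 CPM in EV 100K and 83.8 ± 21.6 CPM in EV 10K (log2 difference -1.55, SE 0.29, edgeR adjusted p = 0.0017). HAUS5, of the augmin complex that branches microtubules, fell in EV 10K against EV 2.8K (8.90 ± 2.24 against 36.8 ± 17.2 CPM, log2 difference -2.06, SE 0.49, edgeR adjusted p = 0.015). HAUS6, of the same complex, rose there (48.8 ± 7.76 against 22.7 ± 3.16 CPM, log2 difference 1.09, SE 0.30, edgeR adjusted p = 0.0332).

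Microtubule-associated proteins and dynein had members on both sides. Of 31 tested associated proteins, 4 rose and 5 fell in EV 100K against EV 10K, where 3.7% of all genes tested rose and 7.23% fell. MAP1B, which stabilizes microtubules, averaged 442 ± 100.7 CPM in EV 100K and 1046 ± 353 CPM in EV 10K (log2 difference -1.25, SE 0.24, edgeR adjusted p = 0.00191). CAMSAP1, which binds microtubule minus ends, averaged 318 ± 22.2 CPM in EV 100K and 162 ± 22.9 CPM in EV 10K (log2 difference 0.97, SE 0.20, edgeR adjusted p = 0.00395). Of 9 subunits of cytoplasmic dynein, the motor that moves cargo along microtubules, 4 fell and none rose in EV 100K against EV 10K (7.23% and 3.7% of all genes), with 2 higher in DESeq2 and 2 at an unadjusted p under 0.05 in edgeR. The light intermediate chain DYNC1LI2 averaged 1192 ± 248 CPM in EV 10K and 367 ± 103 CPM in EV 2.8K (log2 difference 1.68, SE 0.23, edgeR adjusted p = 0.000155), against 119.5 CPM in cells.

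Of 37 actin cytoskeleton genes, 22 fell and 1 rose in EV 100K against EV 10K, beside 7.23% of all genes tested that fell and 3.7% that rose, and their median was -0.99. The myosin light chain MYL12B averaged 51.5 ± 2.99 CPM in EV 100K and 299 ± 52.1 CPM in EV 10K (log2 difference -2.55, SE 0.22, edgeR adjusted p = 2.49e-06). The 1 actin gene that rose there was ARPC1A (log2 difference 0.81, SE 0.22, edgeR adjusted p = 0.0231), a subunit of the Arp2/3 complex, which averaged 50.9 ± 9.17 CPM in EV 2.8K, 127 ± 18.1 CPM in EV 10K and 223 ± 30.7 CPM in EV 100K. ARPC1A was higher in EV 10K than in EV 2.8K by 1.30 (SE 0.22, edgeR adjusted p = 0.00131). The median of the 10 tubulins there was -1.48. By the sign of the log2 difference alone, whether passing or not, 8 of the 10 tubulins and 34 of the 37 actin genes were lower in EV 100K. The median over all genes tested was 0.01. TUBA4A, TUBB2A and TUBB3 were lower without passing, and TUBA1B and TUBA1C were the tubulins that were not lower. The difference between the tubulin and actin lists was not tested, since the tubulins were chosen after a difference in direction had been seen.

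**Figure D5:**
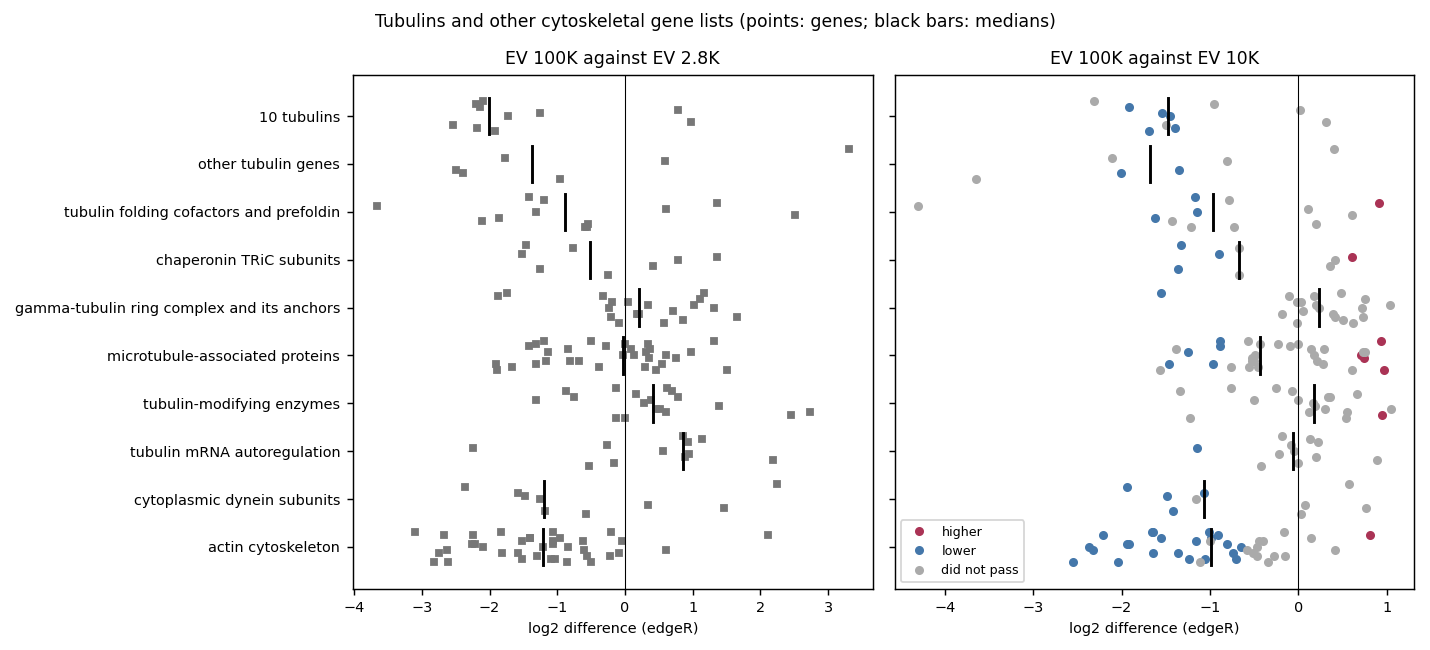
Log2 differences from edgeR of the 10 tubulins and of 9 other gene lists in EV 100K against EV 2.8K (left) and against EV 10K (right), which share the EV 100K libraries; each point is a gene, on the right coloured by whether it was higher, lower or did not pass an adjusted p of 0.05, and black bars are medians. On the right 22 of the 37 actin genes and 5 of the 10 tubulins were lower. The left panel, in grey, is taken to be the contrast that chose the tubulins and is a description.

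The genes whose levels most resembled those of the main tubulins were found by Pearson's r of log2(CPM + 1) over the 9 EV libraries, among 9423 genes with a mean of at least 10 CPM. These libraries form 3 pellets, so any gene that differs between pellets in the same way scores high, and r is given as a description only. For TUBA1B the 5 nearest were AP3S1 (r = 0.988), HRAS (0.983), the ribosomal protein gene RPL27A (0.966), the prefoldin subunit PFDN5 (0.961) and the histone gene HIST1H4B (0.958), and TUBA1C ranked 32 (0.935). For TUBA1C they were MRPL51 (r = 0.992), SNRPD1 (0.985), MSANTD3 (0.983), RPSA (0.983) and RPLP0 (0.981). With the cell library added, r with TUBA1B was 0.902 for AP3S1, 0.899 for HIST1H4B, 0.618 for RPL27A, 0.545 for HRAS and 0.468 for PFDN5. With TUBA1C it was 0.856 for MSANTD3, 0.783 for SNRPD1, 0.732 for MRPL51, 0.618 for RPSA and 0.546 for RPLP0.

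For TUBB the 5 nearest genes were PHB (r = 0.990), EIF4G2 (0.988), YWHAZ (0.977), the pseudogene TUBBP1 (0.975) and CMBL (0.974), over the same 9 libraries. For TUBB4B they were SLC9A3R1 (r = 0.989), PUF60 (0.987), UBE2SP1 (0.986), the actin-severing factor CFL1 (0.986) and C11orf58 (0.985). Among tubulins, TUBB4B was nearest to TUBG1 (r = 0.939) and TUBB2A (0.934), and TUBB to TUBA1A (0.920). TUBA1B had an r of -0.606 with TUBA1A, over the same 9 libraries.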

How the data were processed

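Total RNA of 9 EV libraries and 1 cell library of PC3 was extracted with Trizol and made into libraries with a SMARTer stranded total RNA kit, per the labels' protocols. The submitters' processing notes name STAR 2.6.1d, featureCounts 1.6.3, cutadapt 2.7 and bcl2fastq 2.19.1.403, with the build GRCh38. Neither the annotation nor the strand setting nor the treatment of reads with several matches is given in the sources used here. What the authors deposited are whole-number counts per gene with no normalization. All 94946 entries were used, 45574 of them with GENCODE 29 identifiers.

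Groups and set numbers came from the sample titles. Counts were tested with edgeR 4.0.16 under R 4.3.3, by the robust quasi-likelihood F-test after TMM scaling and a filterByExpr filter (minimum count 10), with Benjamini-Hochberg adjustment over all genes and a threshold of 0.05. The pellet comparisons used the 9 EV libraries (15525 genes) and those with cells all 10 (22370 genes). SE is the log2 difference divided by the root of F. Alternatives were RLE scaling, library totals, totals without mitochondrially encoded genes, no filter, no robust estimation, DESeq2 1.42.0, the libraries in the fit, the set number as a block and each EV library left out in turn. The code was tested on simulated data. Counting intervals (95% Wilson) and a count of 0, which allows up to 3 counts of the total, cover counting error only, since reads are not independent molecules. Transcript and sequence features came from 1 GENCODE 29 transcript per gene and were aligned with Biopython 1.88. TBCE, with 2 entries, was left out of its list.

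The members and lists were chosen with earlier results of these data known. Beside the members, the text names per list and pellet comparison, up to 3 passing genes of smallest p whose higher group reached a mean of 10 CPM, and the 5 genes most like each of 4 tubulins. Some items are not reported here.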

Additional observations from a re-analysis of the deposited data

How the results depend on the processing

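Of the log2 differences computed under alternatives for the 10 tubulins, 1080 kept direction and side of the threshold, 17 newly passed, 18 no longer passed and 25 changed sign. The numbers of tubulins passing were 2 in EV 10K against EV 2.8K, 1 with library totals only, 1 with only the 6 libraries compared, and 0 to 2 with a library left out. In EV 2.8K against cells it was 1, against 2 with library totals only and 1 to 3 with a library left out; in EV 10K against cells 0, against 2 with library totals only and 0 to 1 with a library left out. With a library left out the number was 4 to 6 in EV 100K against EV 10K, 4 to 6 in EV 100K against cells and 2 to 3 for the mean EV. With the set number as a replicate block it stayed at 2 in EV 10K against EV 2.8K and 5 in EV 100K against EV 10K. The deviations of same-numbered libraries from their pellet means had correlations of -0.016 to 0.072 over 9 pairs. For libraries with other numbers these were -0.057 to 0.046. Of 18 best matches, each picked among 3 libraries, 14 shared a number, so pairing by set is not excluded. The main fits had no block because no source states that libraries of 1 set number share a culture.

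All 25 changes of sign were in log2 differences that did not pass, and the cause was not tested. With library totals only, which moved the median of all genes by -0.135 in EV 100K against EV 2.8K, -0.109 in EV 10K against EV 2.8K and -0.195, -0.324, -0.36 and -0.29 in EV 2.8K, EV 10K, EV 100K and the mean EV against cells, TUBA1B was at -0.01 in EV 100K against EV 10K. There, against cells, TUBG1 was at -0.15 in EV 2.8K, TUBA1B at -0.09 and TUBB2A at -0.12 in EV 10K, TUBA1B at -0.1 and TUBA1C at -0.18 in EV 100K, and TUBA1A at -0.01 and TUBB2A at -0.25 in the mean EV. TUBA1B in the mean EV was at 0.11 with RLE (which moved the median by 0.113, 0.15 and 0.118 for EV 2.8K, EV 100K and the mean EV against cells) and at 0.11 with DESeq2. In EV 100K against EV 10K it was at 0 with only the 6 libraries compared. With 1 library left out, the lowest and highest values were -0.63 and 0.05 for TUBA1A and -0.34 and 0.96 for TUBA4A in EV 10K against EV 2.8K, and -0.07 and 0.14 for TUBA1B in EV 100K against EV 10K. Against cells they were -0.11 and 0.25 for TUBG1 in EV 2.8K, -0.04 and 0.84 for TUBB3 in EV 10K, and -0.04 and 0.03 for TUBA1B and -0.11 and 0.19 for TUBB2A in the mean EV. Depth limits TUBA4A, TUBB2A and TUBB3 most, with 10 to 64 counts in the EV 100K libraries.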
